A study of Mus musculus with 2 samples.

Results

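Tachykinins and the sensory and autonomic neuropeptides of the ureter were followed as 10 genes: the peptide precursors Tac1, Tac2, Calca, Calcb, Vip and Npy, the tachykinin receptors Tacr1, Tacr2 and Tacr3, and Mme, which encodes a peptide-degrading enzyme. They were the non-control spots that carry these gene names, 14 of 39429 probes, each printed as 4 spots. Of the 10 genes, 9 had a probe that passed the filter on dim spots, among 21143 genes tested. Tac1 was selected on its measured ratio, among the highest in these data, and the others were added for their place in the same pathways. The ratio of Tac1 is therefore given as a description, with no test.

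RNA came from ureters of NMRI mice at postnatal day 4. The Rbpj-cKO RNAs had the genotype Tbx18(cre/+);Rbpj(fx/fx), in which a cre at the Tbx18 locus, active in the mesenchyme around the ureteric epithelium, removes the DNA-binding protein that Notch receptors act through. The control RNAs were labelled Tbx18(+/+);Rbpj(fx/n.d.), so they differ from the others in the Tbx18 allele too and carry no cre. Each of 2 arrays held 1 Rbpj-cKO RNA and 1 control RNA in different colours. Array 1 carried RNAs labelled female and array 2 RNAs labelled male, and the colours were swapped between them, so labelled sex, dye and replicate cannot be told apart. The sources used here do not say how many animals stand behind an RNA, so every test below measures the spread between 2 pairs of RNAs, which may be technical. With 2 arrays an exact sign-flip test cannot give a two-sided p below 0.5, and tests are those of limma across all genes, adjusted by Benjamini-Hochberg.

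Tachykinins are short peptides cut from precursors and recognised by G protein-coupled receptors that act mainly through Gq and calcium. In the ureter and renal pelvis substance P, neurokinin A and calcitonin gene-related peptide (CGRP) are stored in sensory fibres, and in several species tachykinins excite and CGRP inhibits the muscle that moves urine. Neuropeptide Y (NPY) is mostly stored with noradrenaline in sympathetic fibres and vasoactive intestinal peptide (VIP) in other autonomic fibres. The cell bodies of most such neurons lie in ganglia outside the ureter wall.

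Several properties of the RNAs bear on all values. Between 70.9% and 73.2% of the probes were well above background in each RNA. All 10 smooth muscle and all 10 urothelium markers were detected. Of the smooth muscle markers 8 were lower on both arrays, with medians of -0.23 and -0.35, led by the intermediate filament genes Synm (-1.27 and -0.98) and Des (-0.82 and -0.65). Of the urothelium markers 7 were higher on both arrays (medians 0.39 and 0.09), and so were 5 of 7 mesothelium markers (0.55 and 0.10), led by Gpm6a (1.29 and 0.74) and Lrrn4 (0.99 and 0.79). Rbpj had log2 ratios of -0.92 on array 1 and -1.10 on array 2, and Tbx18 had 0.16 and 0.01. These ratios rest on probes whose place relative to the floxed exons is unknown here. The Y-linked Ddx3y had a log2 ratio of 4.23 on array 1 and -0.54 on array 2. The RNAs of array 1 are both labelled female, so the Rbpj-cKO RNA there goes against its sex label. Its Ddx3y log2 intensity was 11.31, between 7.08 in the control RNA of array 1 and the levels on array 2. Those were 12.92 in the Rbpj-cKO RNA and 13.46 in the control RNA. Whether the RNA holds both sexes was not tested. On array 1 sex and genotype therefore cannot be told apart. The summed normalized intensity of 9 liver markers was 13154 and 12275 in the Rbpj-cKO RNAs, and 9156 and 65061 in the control RNAs, so the control RNA of array 2 stood apart. All 12 measured adipocyte markers were at least 1.5-fold lower in the Rbpj-cKO RNA on both arrays, with medians of -3.26 and -1.75. Of the 9 measured kidney epithelium markers 7 were higher on both arrays and 1 was lower (medians 0.97 and 0.26), among them Kap (1.10 and 1.38) and Lrp2 (1.03 and 0.96). Their summed intensity without the bright Aqp1, the 1 lower and singled out after its values were seen, was 3689 and 3027 in the Rbpj-cKO RNAs against 2295 and 2160 in the control RNAs. With Aqp1, a water channel also made outside the kidney, it was 26879 and 26717 in the Rbpj-cKO RNAs against 31004 and 32368 in the control RNAs. The part of these differences in the results below was not tested. Ratios below are given for each array alone or as a mean over the 2 arrays, mostly with its SD. As the RNA is from whole tissue, fewer cells of a type and less RNA per cell cannot be told apart.

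Tac1, the precursor of substance P and neurokinin A, was higher in the Rbpj-cKO RNA of both pairs. Its normalized log2 intensity was 10.37 and 10.09 in the Rbpj-cKO RNAs, and 8.87 and 8.98 in the control RNAs. The groups did not overlap, and the control RNAs differed by less from each other than either did from its partner. Tac1 was chosen for high ratios in these same RNAs. The liver markers of the 2 control RNAs differed widely, and their part in the Tac1 values was not tested. Over control, Rbpj-cKO had a log2 ratio of 1.49 for array 1 and 1.12 for array 2, a 2.81-fold and a 2.17-fold difference. The mean was 1.30 ± 0.27 (SD, n = 2 arrays). The 4 spots of the probe on array 1 lay between 1.45 and 1.53 and those on array 2 between 1.05 and 1.14, so the arrays differed by more than the spots within an array. Tac1 was 1 of 85 genes, 0.402% of those tested, that were at least 1.5-fold higher on both arrays, and its mean ratio ranked 9 among 21143 genes. These are the values it was chosen for. Its single probe lies on chromosome 6 at 7512893-7512952 (mm9, plus strand). The sources used here do not annotate which part of the transcript the probe covers. The first 30 of its 60 bases are shown because the whole Tac1 result rests on this 1 probe:
Tac1 probe: gtttcaatgtaattctctggtcttcagtca

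**Figure D1:**
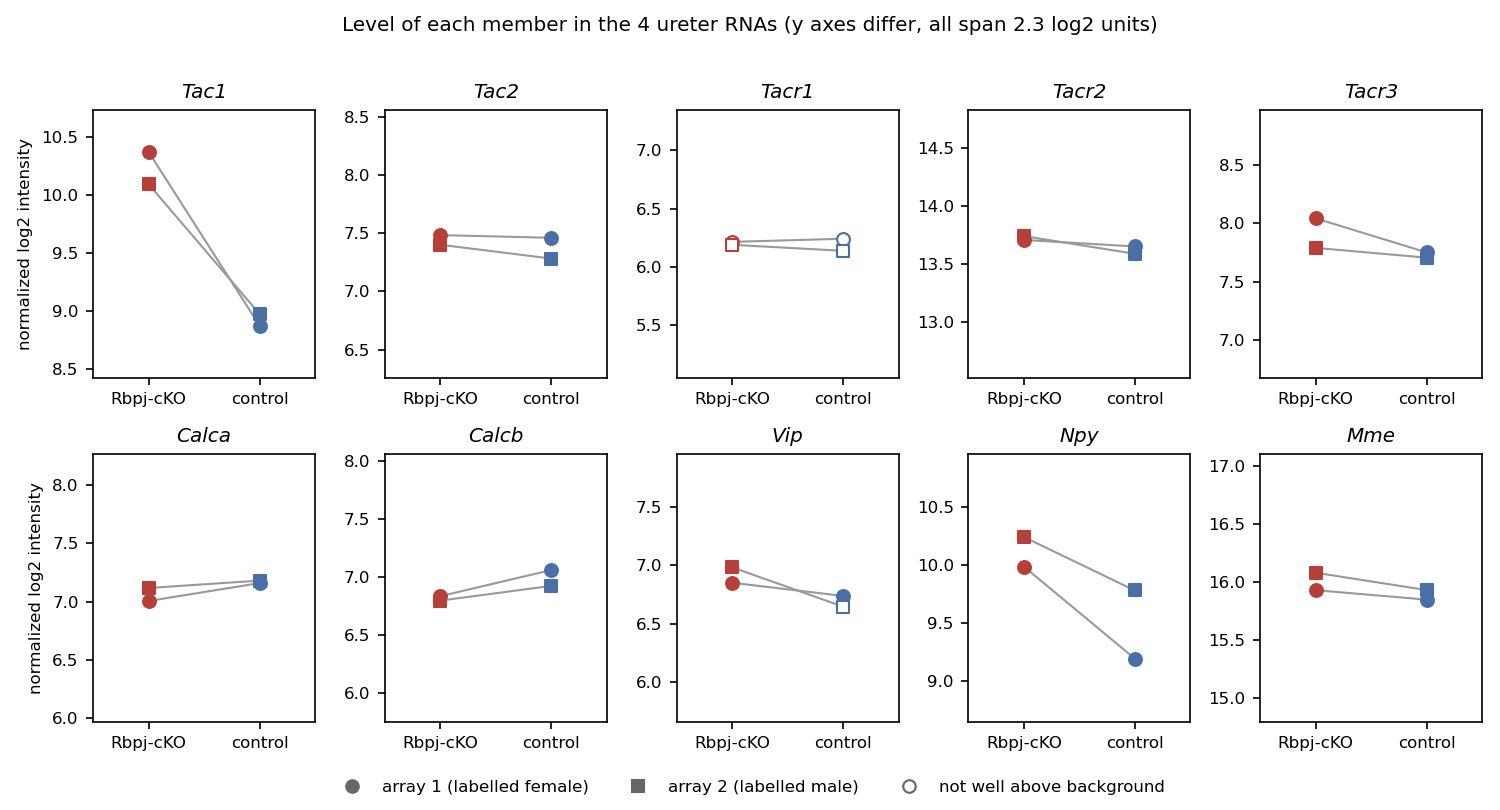
Normalized log2 intensity (y axis) of the 10 members in the Rbpj-cKO and the control RNA of each array, with circles for array 1, squares for array 2 and grey lines joining the RNAs of an array. Open symbols mark RNAs in which most spots were not well above background. Each gene is shown by 1 probe on its own axis. Tac1 and Npy were higher in both Rbpj-cKO RNAs than in either control RNA by the widest margins, and Tacr1 was at background in all 4 RNAs.

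Tac2, the precursor of neurokinin B, was well above background in all 4 RNAs, with log2 intensities of 7.48 and 7.40 in the Rbpj-cKO RNAs against 7.46 and 7.28 in the control RNAs. The groups overlapped. Its mean log2 ratio was 0.07 ± 0.07, with a 95% interval of -0.13 to 0.27 in limma (adjusted p = 0.763). Spots of this dim probe scattered by 0.15 and 0.13 (SD), more than the mean ratio.

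The receptors of these peptides were measured unequally well. Tacr1, the receptor that prefers substance P, was not well above background at any of its spots in any RNA, so no ratio can be given. Tacr3, the receptor that prefers neurokinin B, had log2 intensities of 8.04 and 7.79 in the Rbpj-cKO RNAs against 7.75 and 7.71 in the control RNAs. These groups did not overlap, but the 95% interval of the difference included 0, with a mean log2 ratio of 0.19 ± 0.15 (95% interval -0.05 to 0.42, limma adjusted p = 0.446).

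Tacr2 encodes the receptor that prefers neurokinin A, the tachykinin receptor of smooth muscle in several organs, and its 2 probes disagreed. The probe at 61728517-61728576 of chromosome 10 (mm9) was bright, with log2 intensities of 13.71 and 13.74 in the Rbpj-cKO RNAs and 13.65 and 13.59 in the control RNAs. It gave a mean log2 ratio of 0.10 ± 0.07 (95% interval -0.10 to 0.31, limma adjusted p = 0.629). The probe at 61728679-61728738 was well above background in 1 of the 4 RNAs, the control RNA of array 1. A stretch of each makes clear how the probes differ, with a run of 12 CA units in capitals in the bright probe and the letters AATAAA in capitals in the dim one:
Tacr2 bright probe: tatgCACACACACACACACACACACACAtg
Tacr2 dim probe: gccaggttttccaAATAAAgcctgagatct
Of 106 probes on the array with at least 8 CA or TG units in a row, 105 were well above background in all 4 RNAs (99.1%), against 69.6% of the other 39323 gene probes. Detection of Tacr2 thus rested on a probe of a kind that was nearly always bright here, and the level of Tacr2 was not settled by these arrays.

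The CGRP genes did not follow Tac1. Calca, which encodes calcitonin and alpha-CGRP by alternative splicing, had log2 intensities of 7.004 and 7.12 in the Rbpj-cKO RNAs against 7.16 and 7.18 in the control RNAs. Calcb, which encodes beta-CGRP, had 6.83 and 6.80 in the Rbpj-cKO RNAs against 7.06 and 6.92 in the control RNAs. In each pair both stood slightly under the control level, with mean log2 ratios of -0.11 ± 0.06 for Calca (95% interval -0.31 to 0.09, limma adjusted p = 0.609) and -0.18 ± 0.07 for Calcb (-0.38 to 0.03, 0.414). Neither interval reaches the size of the Tac1 difference, but both hold only for this processing, whose offset shrinks the ratios of dim probes. With a smaller offset Calca had -0.14 and Calcb -0.25, and by the scanner log ratio they had -0.26 and -0.45. The deposited series table gave -0.29 for Calca and -0.02 for Calcb. Each of these mean ratios had the opposite sign to that of Tac1. The intervals bound the ratio in this processing only, and not the difference in the RNA. The second Calca probe lies 1684 bases away on chromosome 7 and carries another transcript's accession. It gave -0.12 on array 1 and 0.10 on array 2, and in the control RNA of array 2 it was not well above background. All 3 probes were dim, which limits what they can show.

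Of the autonomic peptides, Npy was higher in the Rbpj-cKO RNA of both pairs. Npy, a vasoconstrictor peptide of sympathetic fibres, had log2 intensities of 9.98 and 10.24 in the Rbpj-cKO RNAs against 9.19 and 9.78 in the control RNAs. The groups did not overlap, though the control RNAs lay further apart than the Rbpj-cKO RNAs. Its log2 ratios were 0.79 and 0.46, or 1.73-fold on array 1 and 1.37-fold on array 2 (mean 0.63 ± 0.23, 95% interval 0.34 to 0.91). It ranked 142 among all genes, but the fit across all genes did not call it (limma adjusted p = 0.173), and array 2 missed the 1.5-fold mark. The 4 spots lay between 0.69 and 0.87 on array 1 and between 0.41 and 0.52 on array 2. The probe spans 49773743-49777505 of chromosome 6 (mm9), more than its own length, so it joins separate stretches of the genome. It is shown whole because the Npy result rests on it:
Npy probe: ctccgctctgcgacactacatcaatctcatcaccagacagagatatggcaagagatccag

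Vip, the precursor of vasoactive intestinal peptide, stood close to background. All 4 of its spots were well above background in each Rbpj-cKO RNA, against 3 of 4 in the control RNA of array 1 and 0 of 4 in that of array 2. The log2 intensities were 6.85 and 6.98 in the Rbpj-cKO RNAs against 6.74 and 6.65 in the control RNAs. The mean log2 ratio was 0.23 ± 0.16 (95% interval -0.02 to 0.47, limma adjusted p = 0.379). Vip passed the filter only through the Rbpj-cKO RNAs, which favours a higher ratio, so nothing is read from its direction.

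**Figure D2:**
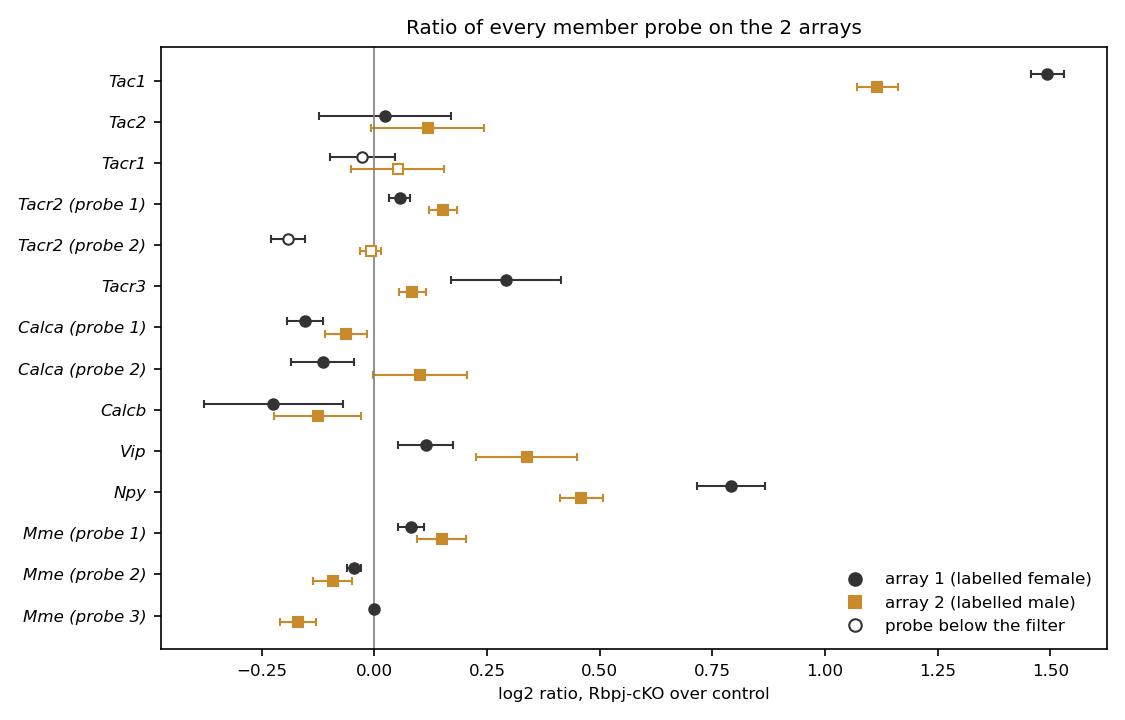
Log2 ratio of Rbpj-cKO over control (x axis) for all 14 member probes, with circles for array 1, squares for array 2 and bars for the SD of the spots of a probe. Open symbols are probes that failed the filter. Tac1 stands at 1.49 and 1.12 and Npy at 0.79 and 0.46, and the other probes lie between -0.22 and 0.34.

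Mme encodes neprilysin, a membrane enzyme that cleaves substance P and other peptides, and its 3 probes were bright in all RNAs and disagreed in sign. The brightest, assigned in the files to an Ensembl transcript, had log2 intensities of 15.93 and 16.08 in the Rbpj-cKO RNAs against 15.85 and 15.93 in the control RNAs, and a mean log2 ratio of 0.11 ± 0.05 (95% interval -0.08 to 0.31, limma adjusted p = 0.581). The probes assigned to RefSeq transcripts gave -0.07 ± 0.03 and -0.09 ± 0.12. Their mean over the gene was -0.01, so no direction is given for Mme. The kidney epithelium markers, which mark cells that also make neprilysin, had medians of 0.97 and 0.26 in the same RNAs, with 7 of 9 higher on both arrays, and their part in the Mme values was not tested.

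Taking the 9 measured genes together, 7 were higher in the Rbpj-cKO RNA on both arrays, 2 were lower on both and 0 went opposite ways. Among all genes tested 31.8% were higher and 29.7% lower on both arrays. The 7 hold Tac1, which was selected for this direction, Tacr2, which rested on the repeat probe, and Mme, whose probes disagreed. They also hold Vip, which passed the filter only through the Rbpj-cKO RNAs, where it was higher. A stricter filter that asks for signal in both genotypes left Vip out and gave 6 higher. The median of the 9 was 0.08 on array 1 and 0.15 on array 2, against -0.01 and 0.01 over all genes. Limma called 0 of the 9 (0% of all genes were called higher and 0.00473% lower). At an unadjusted p under 0.05 it gave 2, Tac1 and Npy, where 6.98% of all genes were higher and 7.03% lower by that mark. With trend and robust settings it called 1, Tac1, which is no test of a gene selected on its ratio. As Tac1 was selected on this contrast, nothing is read from its place in these counts. As 0 went opposite ways, array 1 alone and array 2 alone each had to give 7 higher and 2 lower. With a 1.5-fold mark on 1 array, array 1 alone gave 2 higher genes (Tac1 and Npy), against 202 of all 21143 genes. Array 2 alone gave 1 (Tac1), against 258.

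**Figure D3:**
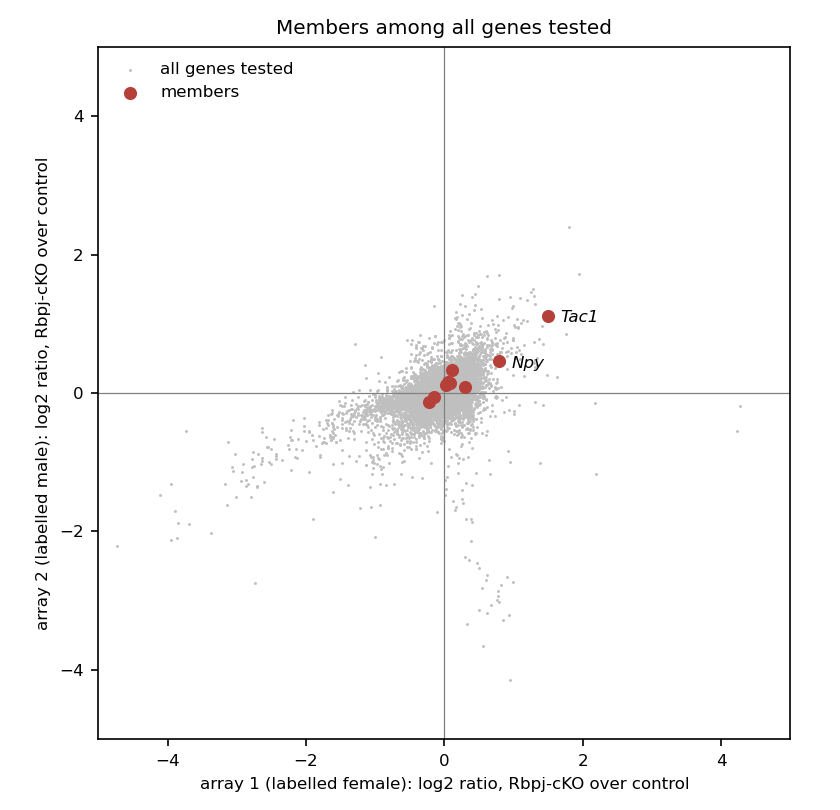
Log2 ratio of Rbpj-cKO over control on array 1 (x axis) against array 2 (y axis) for 21143 genes (grey) and the 9 measured members (red). Tac1 lies apart from the cloud to the upper right, Npy at its edge, and the other 7 members within it. None of the 9 lies in the arm of genes that were low on array 2 only, where the liver markers fall, or in the arm at lower left, where the adipocyte markers fall.

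Genes whose pattern over the 4 RNAs was nearest to that of Tac1, by the Euclidean distance of log2 intensities centred on each gene's mean and among 15682 named genes, were Nap1l2, Cntn4, Crym, Six2 and Cltrn, at distances from 0.05 to 0.25. Nap1l2, a nucleosome assembly protein, had log2 ratios of 1.47 and 1.10 on arrays 1 and 2, and Cntn4, a contactin adhesion molecule, 1.55 and 1.13. Crym, a thyroid hormone-binding crystallin, had 1.29 and 1.41, Six2, a transcription factor of nephron progenitors, 1.41 and 0.97, and Cltrn, a partner of amino acid transporters in kidney tubules, 1.37 and 0.78. The kidney epithelium markers given above were also mostly higher in these RNAs, and their part in the Tac1 values was not tested. With 4 RNAs this likeness is only a description.

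The other genes of the peptide pathways were looked at through lists of ligands, receptors and enzymes. Of the 57 further genes, 45 were measured, of which both arrays showed 17 higher and 12 lower, and 16 went opposite ways. These are 37.8% higher and 26.7% lower, against 31.8% and 29.7% over all genes. Limma called 0 of these 45, and gave 6 higher (13.3%) and 4 lower (8.89%) at an unadjusted p under 0.05, against 6.98% and 7.03% over all genes. Their median was 0.04 on array 1 and 0.06 on array 2, and 1 gene, Npy1r, passed the 1.5-fold mark on both arrays.

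Npy1r, a Gi-coupled NPY receptor of vascular smooth muscle, was higher in the Rbpj-cKO RNA of both pairs, as its ligand was. Its log2 intensity was 12.30 and 12.31 in the Rbpj-cKO RNAs against 11.42 and 11.72 in the control RNAs, with no overlap. Its log2 ratios were 0.88 and 0.60 (mean 0.74 ± 0.20, 95% interval 0.47 to 1.01, limma adjusted p = 0.133). Npy2r, the receptor found on nerve endings, had -0.17 and 0.07, and Npy4r had -0.26 and -0.09. Pyy, Ppy and Npy5r were not well above background.

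Among the CGRP receptor parts the ratios went both ways. CGRP acts through Calcrl, a receptor that needs a RAMP partner, and Ramp1 is the partner that makes it a CGRP receptor. Calcrl had log2 intensities of 12.10 and 11.88 in the Rbpj-cKO RNAs against 11.61 and 11.57 in the control RNAs, a mean log2 ratio of 0.40 ± 0.12 (limma adjusted p = 0.208). Ramp1 had 11.98 and 12.14 in the Rbpj-cKO RNAs against 12.23 and 12.46 in the control RNAs, a mean of -0.29 ± 0.05 (adjusted p = 0.261), and its dimmer probes gave -0.15 and -0.03. Ramp2 and Ramp3, with which Calcrl binds adrenomedullin, had means of -0.05 and -0.06, and Adm, the adrenomedullin precursor, had 0.32 ± 0.11 (limma adjusted p = 0.256). The calcitonin receptor Calcr had 0.18 ± 0.07 and Crcp, a CGRP receptor component, 0.02 ± 0.03. Calcrl and Ramp2 are also abundant in endothelium. The VIP receptors Vipr1 and Vipr2 had means of 0.20 and -0.02, and the PACAP receptor Adcyap1r1 -0.14.

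The enzymes that make and remove peptides showed small differences. Qpct, which closes N-terminal glutamine into pyroglutamate, had 0.33 ± 0.01 (limma adjusted p = 0.223), and Cpe, which trims basic residues after the precursor is cut, had -0.26 ± 0.02 (adjusted p = 0.278), with all 3 Cpe probes between -0.31 and -0.26. The convertase Pcsk1 was not well above background, and Pcsk2 had 0.10 and -0.14. Pam, which amidates the C-terminus of substance P, CGRP, VIP and NPY, had 0.23 and -0.04. The chaperone of Pcsk2, Scg5, had 0.38 and -0.00, and the convertase inhibitor Pcsk1n 0.04 and 0.05. Of the 13 peptide-degrading enzymes, Mme included, both arrays showed 4 higher and 3 lower, and 6 went opposite ways. Those higher on both included Ece2 (0.29 ± 0.36) and Enpep (0.17 ± 0.18), and those lower were Ece1 (-0.20 ± 0.24), Ace (-0.02 ± 0.02) and Thop1 (-0.11 ± 0.08). The endothelin-converting enzymes among them also cleave substance P and CGRP. Dpp4, which trims NPY, had 0.57 and -0.21, and the mast cell chymase Cma1 -0.41 and 0.67. The means of Mmel1, Nln, Anpep and Prep lay between -0.11 and 0.01.

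Among the other neuropeptides, Grp, the precursor of gastrin-releasing peptide, had -0.45 on array 1 and -0.46 on array 2 (mean -0.46 ± 0.01, limma adjusted p = 0.159). Scg2, a granin of secretory granules, had 0.36 ± 0.04 (adjusted p = 0.204). The neurotensin precursor Nts (-1.01 and -0.36) and the CART precursor Cartpt (0.99 and 0.27) differed more on array 1 than on array 2. Of the 18 genes of this list 14 were measured, 7 higher and 2 lower on both arrays. Sst, Pdyn, Nmu and Nppb were not well above background.

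**Figure D4:**
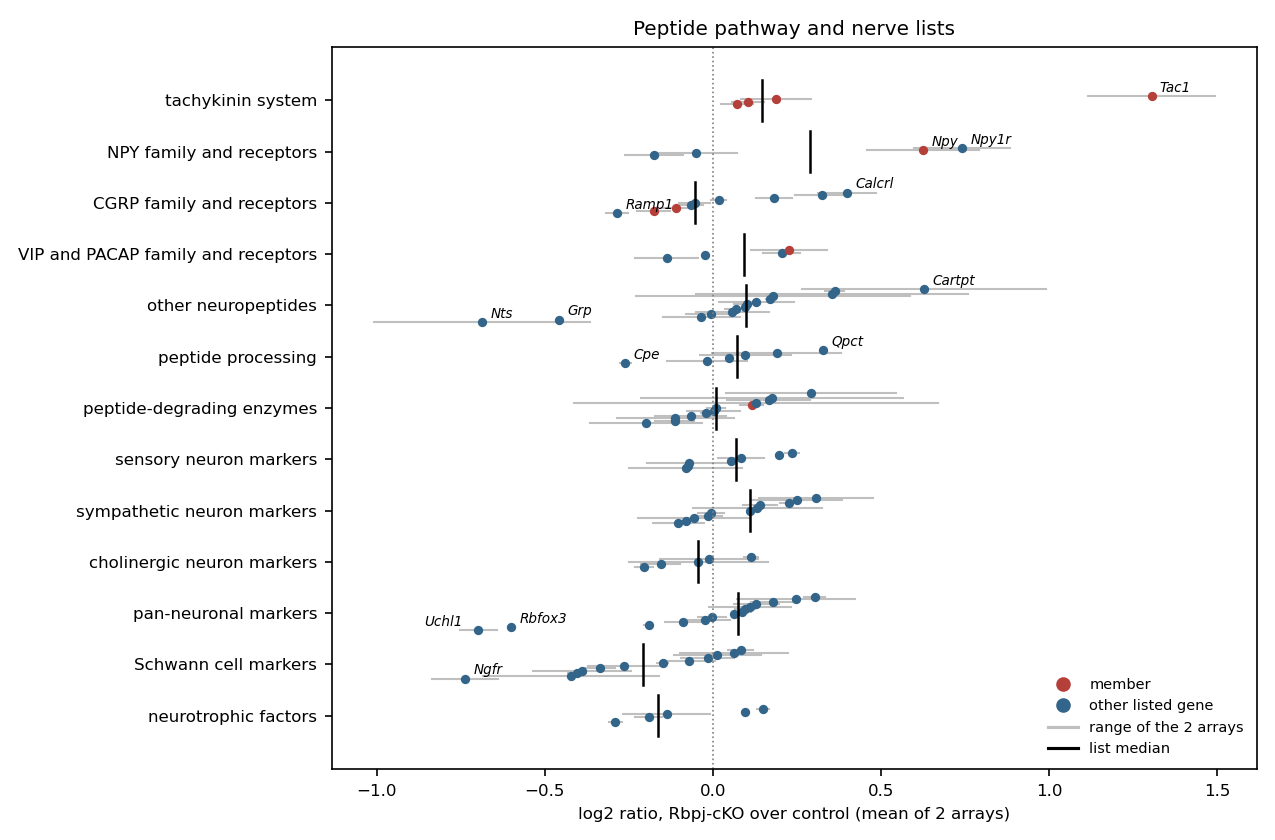
Mean log2 ratio of Rbpj-cKO over control (x axis) of the measured genes reported for 13 peptide and nerve lists, 1 list per row. Red points are members, blue points other genes, grey lines run between the values of the 2 arrays and black bars are medians over all measured genes of a list. Tac1 (1.30) lies far to the right of its list, while the list medians lie between -0.21 and 0.29.

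Nerve and glia markers did not move with Tac1 as a body. Of 60 genes in the nerve lists, 56 were measured, 21 higher and 20 lower on both arrays, with medians of 0.05 on array 1 and -0.05 on array 2. These are 37.5% higher and 35.7% lower, against 31.8% and 29.7% over all genes. The direction counts of the single nerve lists below are to be set against the same shares over all genes. Limma called 0 of them, and gave 6 higher (10.71%) and 11 lower (19.6%) at an unadjusted p under 0.05, against 6.98% and 7.03% over all genes. In the sensory list 5 of 8 measured genes were higher and 1 lower on both arrays, with medians of 0.12 and 0.03. At an unadjusted p under 0.05 limma gave 3 of these 8 higher and 0 lower. Of the measured genes, Isl1 (0.21 and 0.26), Ret (0.19 and 0.20) and Prph (0.15 and 0.01) were among the higher. Avil (-0.08 and -0.07) was the 1 lower. The nociceptor channels Trpv1, Trpa1, Scn9a and Scn10a were not well above background. The summed intensity of the list was 3198 and 3608 in the Rbpj-cKO RNAs against 2552 and 2925 in the control RNAs. Ngfr, a neurotrophin receptor of Schwann cells and neurons, had log2 intensities of 11.11 and 11.35 in the Rbpj-cKO RNAs against 11.95 and 11.99 in the control RNAs. Its ratios were -0.84 and -0.64 on the log2 scale (mean -0.74 ± 0.14, limma adjusted p = 0.122), and with trend and robust settings it was called (adjusted p = 0.0494).

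The markers of the fibres that hold NPY were split. In the sympathetic list 5 of 11 genes were higher and 2 lower on both arrays, with medians of 0.11 and -0.05. Its most different members were the transcription factors Hand2 (0.31 ± 0.24), Phox2a (0.25 ± 0.19) and Gata3 (0.23 ± 0.04), of which Gata3 is also a urothelial gene. The enzymes of noradrenaline synthesis, Th (0.11 and -0.22) and Dbh (0.32 and -0.06), went opposite ways on the 2 arrays, while Npy was higher on both. They were singled out after their values were seen. The summed intensity of the sympathetic list was 38341 and 44037 in the Rbpj-cKO RNAs against 34059 and 38912 in the control RNAs, a ratio of 1.13 on each array.

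The pan-neuronal markers were mixed and the Schwann cell markers mostly lower. Of 14 pan-neuronal genes 7 were higher and 4 lower on both arrays, with medians of 0.09 and 0.06, whereas their summed intensity was 66878 and 70174 in the Rbpj-cKO RNAs against 85198 and 94525 in the control RNAs. The bright Uchl1 (-0.64 and -0.75) and Rbfox3 (-0.61 and -0.59, alike in its 3 probes) weigh most in that sum, whereas Tubb3, neuronal tubulin, had 0.33 and 0.27. Of the 12 Schwann cell genes, 7 were lower and 1 higher on both arrays, with medians of -0.16 on each array, led by Ngfr, S100b (-0.68 and -0.16) and Foxd3 (-0.43 and -0.38). The cholinergic list, whose fibres often hold VIP, had 1 of 5 genes higher and 2 lower on both arrays. Whether these shifts have a part in the values of Tac1 and Npy was not tested.

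The sequence before the start of each gene was searched for 4 short motifs, since the deleted gene encodes a DNA-binding protein. RefSeq windows of 250 bases before the start (GRCm38.p6) were held for 9 of the 10 genes, in 11 windows. The letters TGGGAA, the core bound by the Rbpj protein, occurred on neither strand in any of the 11, against 21.6% of 32851 windows of all genes. This says only that these letters are not in these windows. TGACG, the part shared by cAMP response elements, occurred in 5 of the 11 windows and in 17.8% of all windows. The 5 belong to 5 genes (Calca, Tac1, Tacr1, Tacr3 and Vip). CACGTG occurred in 1 of the 11, that of Tac1, and in 6.02% of all windows. GGGCGG occurred in 6 of the 11, from 4 genes (Mme, Npy, Tac1 and Tacr2), and in 32.7% of all windows. The windows of the 2 genes with the highest ratios are shown, both on the plus strand of chromosome 6, at chr6:7554811-7555060 for Tac1 and chr6:49822460-49822709 for Npy. Capitals mark the last 3 motifs on either strand, so that TGACG also shows as its complement CGTCA:
Tac1 promoter: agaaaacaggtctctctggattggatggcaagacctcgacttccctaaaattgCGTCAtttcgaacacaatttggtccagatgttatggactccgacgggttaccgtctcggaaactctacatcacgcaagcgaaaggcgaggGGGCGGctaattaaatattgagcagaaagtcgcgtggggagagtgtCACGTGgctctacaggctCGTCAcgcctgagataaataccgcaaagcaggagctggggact
Npy promoter: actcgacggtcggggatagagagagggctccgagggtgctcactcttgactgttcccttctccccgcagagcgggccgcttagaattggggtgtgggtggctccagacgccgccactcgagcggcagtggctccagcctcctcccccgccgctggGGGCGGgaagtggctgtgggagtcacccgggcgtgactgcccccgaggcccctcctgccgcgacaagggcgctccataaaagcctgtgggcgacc
The window of Tac1 holds TGACG on the minus strand at 2 places, and CACGTG and GGGCGG once each. That of Npy holds GGGCGG once and none of the others.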

How the data were processed

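The deposited spot intensities were extracted by the authors with Agilent Feature Extraction 10.7.3.1, per the file headers. Red over green is deposited as a log10 ratio of processed signals, per the file headers. The deposited series table holds a score, and the sources used here do not say how it was made. Having no value between -1 and 1, it was read as signed fold changes, turned to log2, which correlated with the scanner ratios across probes (0.777 and 0.686), and this served for 1 alternative.

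Background was corrected by normexp (offset 50) from mean and median background signals, followed by loess within arrays in limma 3.58.1 (R 4.3.3), with control spots at weight 0 and outlier spots dropped (3.34% and 3.12%). Each ratio was oriented as Rbpj-cKO over control from the dye labels and the 4 spots of a probe averaged. Probes stayed in (28176 of 39429) where, on each array, over 50% of spots in the channel of the same genotype were well above background, and the brightest kept probe stood for a gene. Names came from RefSeq (GRCm38.p6) by accession for 28328 probes. Ratios were tested against 0 with lmFit and eBayes (4.37 degrees of freedom), adjusted over 21143 genes at 0.05. Intervals are limma's, at 95% and for a single gene. Levels per RNA were scaled between arrays with Aquantile. The arrays lay on 1 slide and scanned on the same day, per the file headers. The fit was tested on simulated data. No count data exist, and the number of arrays limits the precision.

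The members and lists were chosen with earlier results of these data known. The text names all members and measured genes of the tachykinin, CGRP, VIP, NPY, processing and degrading lists. From some further lists it names up to 4 of the genes with the largest absolute mean ratio, and from others none. The 5 genes nearest to Tac1 are named too. Alternatives changed the background correction, normalization, filter, probe choice, variance prior, unit and source of the values, and left out each array. A few genes of these lists enter the counts and medians but are not reported here. The promoter motifs were chosen after the data were seen.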

Additional observations from a re-analysis of the deposited data

Results flagged for a closer look

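Opposite directions on the 2 arrays marked the liver marker list, a check on these RNAs and not part of the neuropeptides. The list's median stood at 0.61 on array 1 but at -2.70 on array 2 (log2 ratio of Rbpj-cKO over control). Each array holds 1 pair of RNAs, and the Rbpj-cKO RNA of array 1 goes against its sex label, so the difference was not tested. None of the 9 measured neuropeptide genes differed at least 1.5-fold in opposite directions (0 genes). Only 22 of all 21143 genes did, so nothing is read from this count. Tac1, which was selected for high ratios, and Npy were higher on both arrays.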

How the results depend on the processing

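Across 12 alternatives with a fit, Tac1 stayed between 1.29 and 1.501 and Npy between 0.61 and 0.73, with adjusted p from 0.113 to 0.577 for Npy, and 0 of 95 values of the 8 members other than Tac1 passed the threshold in limma (smallest adjusted p 0.113). The stricter filter left out Vip, which ranged from 0 (deposited series table) to 0.77 (scanner log ratio). Mme was -0.013 as the mean over probes, and its other probes gave -0.070 and -0.085, while the dim Tacr2 probe gave -0.10. These single probes were tried after the data were seen. Without the pairing of RNAs on an array (4 channels in a 2-group fit, no replicate block) the adjusted p of Npy was 0.393. The mean ratios, 1.30 for Tac1 and 0.63 for Npy, cannot change in that fit. Alternatives of the filter, probe choice or variance prior could not move the ratio of Tac1 either, as it rests on 1 probe. Members lower on both arrays were 1 as the mean over probes and 1 in the deposited series table. With trend and robust settings 1 member was called, Tac1, from which nothing is read because it was selected on this ratio. Members at least 1.5-fold higher were 1 to 2 with an array left out. Over all genes, 48 were called higher and 52 lower under trend and robust settings, while 0 were called lower with the series table, the 2-group fit, scaling between arrays, median centring or the scanner log ratio. At least 1.5-fold changed were 245 higher and 265 lower with the scanner log ratio and 154 higher with the series table, and 202 to 258 higher and 292 to 782 lower with an array left out. The median of the other peptide genes was 0.085 (scanner log ratio), 0.039 (median centring), 0.097 (series table) and 0.037 to 0.062 with an array left out. The cause of these shifts was not tested, save that leaving out an array removes the need to pass on both. Probes near background (Vip, Calca, Calcb) limit what a ratio can show.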
